A study of Mus musculus with 9 samples.

Results

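Cell cycle genes are the cyclins, kinases, inhibitors, transcription factors, replication proteins and mitotic proteins that carry a cell through DNA synthesis and division. They were taken as a list of 43 mouse gene symbols, made with earlier results of these data known. Each gene was read from the probe set that the array annotation gives exactly 1 symbol and that had the highest mean over the arrays. With this rule 42 of the 43 genes were measured, out of 18193 genes in all. Ccnb1 has no such probe set and was not analysed here. The 42 genes have 95 probe sets with 1 symbol, of 45037 probe sets tested.

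RNA was measured on 9 Affymetrix arrays, 3 for each of 3 groups of cells sorted by flow cytometry from mouse forelimb buds at E10.5. The PAX3-FKHR GFP+ group holds GFP positive cells of Pax3PAX3-FKHR/GFP embryos, in which one Pax3 allele encodes GFP and the other the fusion protein PAX3-FKHR, a strong activator with the DNA binding part of Pax3. The control GFP+ group holds GFP positive cells of Pax3GFP/+ embryos, which keep an unmodified Pax3 allele, whereas the PAX3-FKHR embryos keep none. The GFP- group holds the remaining cells of the bud, and the labels give no genotype for it. The paper describes the GFP+ and GFP- comparison as made in Pax3GFP/+ embryos, while its list of hybridized groups also names Pax3+/+. PAX3-FKHR GFP+ and GFP- cells thus differ in genotype as well as in the sort. Both engineered alleles are driven from the Pax3 locus, so that GFP marks cells that express or have recently expressed Pax3, and the fusion was switched on by a PGK-Cre transgene. The sources used here do not say whether control embryos carry that transgene. Embryos of one genotype were pooled before sorting, and the methods describe the 3 samples of a population as biological replicates. The values are log2 RMA values per probe set, and a value is not comparable between genes because probes differ in brightness.

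In a dividing cell, D-type cyclins with Cdk4 and Cdk6, then E-type cyclins with Cdk2, phosphorylate the retinoblastoma family of proteins and release E2F factors, which switch on genes for DNA replication. A- and B-type cyclins with Cdk1 then drive entry into mitosis, where kinases such as Plk1 and the Aurora kinases act on the spindle. Inhibitors of the Cip/Kip and INK4 families hold the kinases back. In skeletal muscle, differentiation goes with permanent exit from the cell cycle, and Cdkn1a and Cdkn1c are the inhibitors best known for that step. Limb muscle progenitors, which express Pax3, divide while they migrate from the somite into the bud.

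Promoters of cell cycle genes often hold short elements that recur in genes of the same phase. The CHR element is found at many mitotic genes and the E2F element at many replication genes, and both are often accompanied by CCAAT boxes. The following stretches of 130 bases end at the base before the annotated start of transcription. They are shown because Cdkn1a had the largest difference between GFP+ and GFP- cells, Mki67 was the only mitotic gene called in any comparison, and Cdk1 and Mcm6 stand for the mitotic and replication genes that were not called. Sequences are from RefSeq on GRCm38.p6, 5′ to 3′ on the strand of the gene, and the capitals mark CHR, E2F and CCAAT letters on either strand.
Cdkn1a: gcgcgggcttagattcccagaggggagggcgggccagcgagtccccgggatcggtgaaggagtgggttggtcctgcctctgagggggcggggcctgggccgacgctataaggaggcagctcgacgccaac
Mki67: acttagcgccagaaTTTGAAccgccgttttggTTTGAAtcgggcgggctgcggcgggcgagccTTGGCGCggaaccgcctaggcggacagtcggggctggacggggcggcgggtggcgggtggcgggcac
Cdk1: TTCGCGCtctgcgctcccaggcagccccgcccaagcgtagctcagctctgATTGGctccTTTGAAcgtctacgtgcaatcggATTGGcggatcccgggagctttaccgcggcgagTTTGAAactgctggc
Mcm6: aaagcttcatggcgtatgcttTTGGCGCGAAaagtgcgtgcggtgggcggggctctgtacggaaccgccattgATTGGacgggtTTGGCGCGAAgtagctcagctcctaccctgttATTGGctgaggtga

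The Cdkn1a stretch lies at chr17:29093639-29093768 on the plus strand and belongs to the second of 2 annotated starts. The others lie on the minus strand, Mki67 at chr7:135716380-135716509, Cdk1 at chr10:69352913-69353042 and Mcm6 at chr1:128359706-128359835. The Cdkn1a stretch holds none of the letters searched. The Mki67 stretch holds 2 CHR elements and 1 E2F element, and that of Cdk1 holds 2 CHR elements, 1 E2F element and 2 CCAAT boxes. In the Mcm6 stretch 4 E2F matches and 2 CCAAT boxes were found, where the E2F matches come as overlapping pairs on opposite strands.

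Over the whole window of 250 bases before to 50 after the start, 32 of the 42 genes measured had a promoter in the table used. A CHR element was found in 7 of 9 promoters of mitosis and proliferation markers and in 2 of 6 promoters of replication genes, against 30.6% of the 27025 genes with a promoter. An E2F element was found in 4 of 6 replication promoters and 1 of 9 promoters of mitosis and proliferation markers, against 9.2% of all genes. A CCAAT box was in 6 of 6 and 7 of 9 of these promoters, against 41.1% of all. The letters taken as a CHR element were TTTGAA, held by 20.2% of all genes, and TTTAAA, held by 14.9%. Those taken as an E2F element were TTCCCGC, held by 5.29%, TTGGCGC, held by 2.85%, and TTCGCGC, held by 1.81%, and both strands were searched. Both Cdkn1a windows and the windows of Cdk6, Cdk4, E2f1 and Mad2l1 hold none of these letters. A match describes the letters only and says nothing of a factor bound there. Mcm4, Aurkb, Ccna2, Cdc25c, Myc, Rb1, Foxm1, Ccne2, Ccnd2 and Ccnd1 were not matched in the table.

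The labels were first checked against Pax3. Its log2 values were 7.15, 6.83 and 7.33 in PAX3-FKHR GFP+ cells, 9.92, 8.94 and 10.22 in control GFP+ cells and 5.17, 5.14 and 4.77 in GFP- cells, so that the 3 groups did not overlap. Of 10 limb muscle progenitor markers measured, 10 were called higher in control GFP+ than in GFP- cells, and 13 of 16 limb mesenchyme markers were called lower. Other cell types also differed between the sorts. The neural crest, glia and neuron list had 7 of 11 markers called higher in control GFP+ cells, its mean level per array running from 6.36 to 7.07 in control GFP+, 6.51 to 7.38 in PAX3-FKHR GFP+ and 5.15 to 5.25 in GFP- cells. The erythroid list had a mean level of 6.21, 9.16 and 10.05 on the GFP- arrays, against 5.97 to 7.57 on the GFP+ arrays, and the limb ectoderm list 5.61 to 6.74 against 4.87 to 5.60. The part of these cells in the differences given for the cell cycle genes was not tested. Control GFP+ replicate 3 stood apart, being the array farthest from the median of the 9 in 14 of the 42 cell cycle genes, where no other array was so in more than 9. Several differences that it moved are given with and without it.

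Between PAX3-FKHR GFP+ and control GFP+ cells, no cell cycle gene was called in either direction in the fit by group alone, a call being a Benjamini-Hochberg adjusted p under 0.05 in limma and a log2 difference of at least 0.5. Of all genes, 0.61% were called higher and 0.203% lower. With the replicate number as a block, a pairing of the 2 genotypes that was inferred from these data, 1 gene, Myc, was called lower (adjusted p = 0.0477). Myc, Ccnd1 and Ccne1 were the 3 of 42 genes with an unadjusted p under 0.05, where 1522 of all 18193 genes were so. The local pooled error test also called 0 of the 42. The median difference over the 42 genes was -0.08 on the log2 scale, against -0.03 over all genes, and single differences ran from -0.87 for Myc to 0.54 for Ccne2. The 95% interval of the difference lay between log2 values of -1 and 1 for 37 of the 42 genes and between -0.5 and 0.5 for 21, so that doubling or halving of the RNA was outside the interval for most but not for Ccnd1, Ccne2, Cdk2, Rb1 and Myc. All 3 PAX3-FKHR arrays were below all 3 control arrays for 7 genes, or 16.7%, where 8.88% of all genes were so. They were Ccnd1, Ccnb2, Cdk6, Foxm1, Myc, Mcm2 and Pcna. All 3 were above for Mki67, or 2.38%, against 5.42% of all genes.

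Between control GFP+ and GFP- cells, Cdkn1a and Myc were called higher in control GFP+ cells and Mki67 lower. These are 4.76% and 2.38% of the 42 genes, where 2.79% of all genes were called higher and 1.93% lower, so the shares were near those of all genes. Between PAX3-FKHR GFP+ and GFP- cells, Cdkn1a, Myc and Ccne1 were called higher and Ccnd1, Cdk6, Pcna and Mki67 lower. These are 7.14% and 9.52%, where 3.9% of all genes were called higher and 2.79% lower. Both comparisons use the same GFP- arrays. The median difference over the 42 genes was -0.07 for control GFP+ and -0.15 for PAX3-FKHR GFP+ cells, against 0.08 and 0.05 over all genes, with 27 and 30 of the 42 genes below 0. In such bulk samples, fewer cells of a type and less RNA per cell cannot be told apart.

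**Figure D1:**
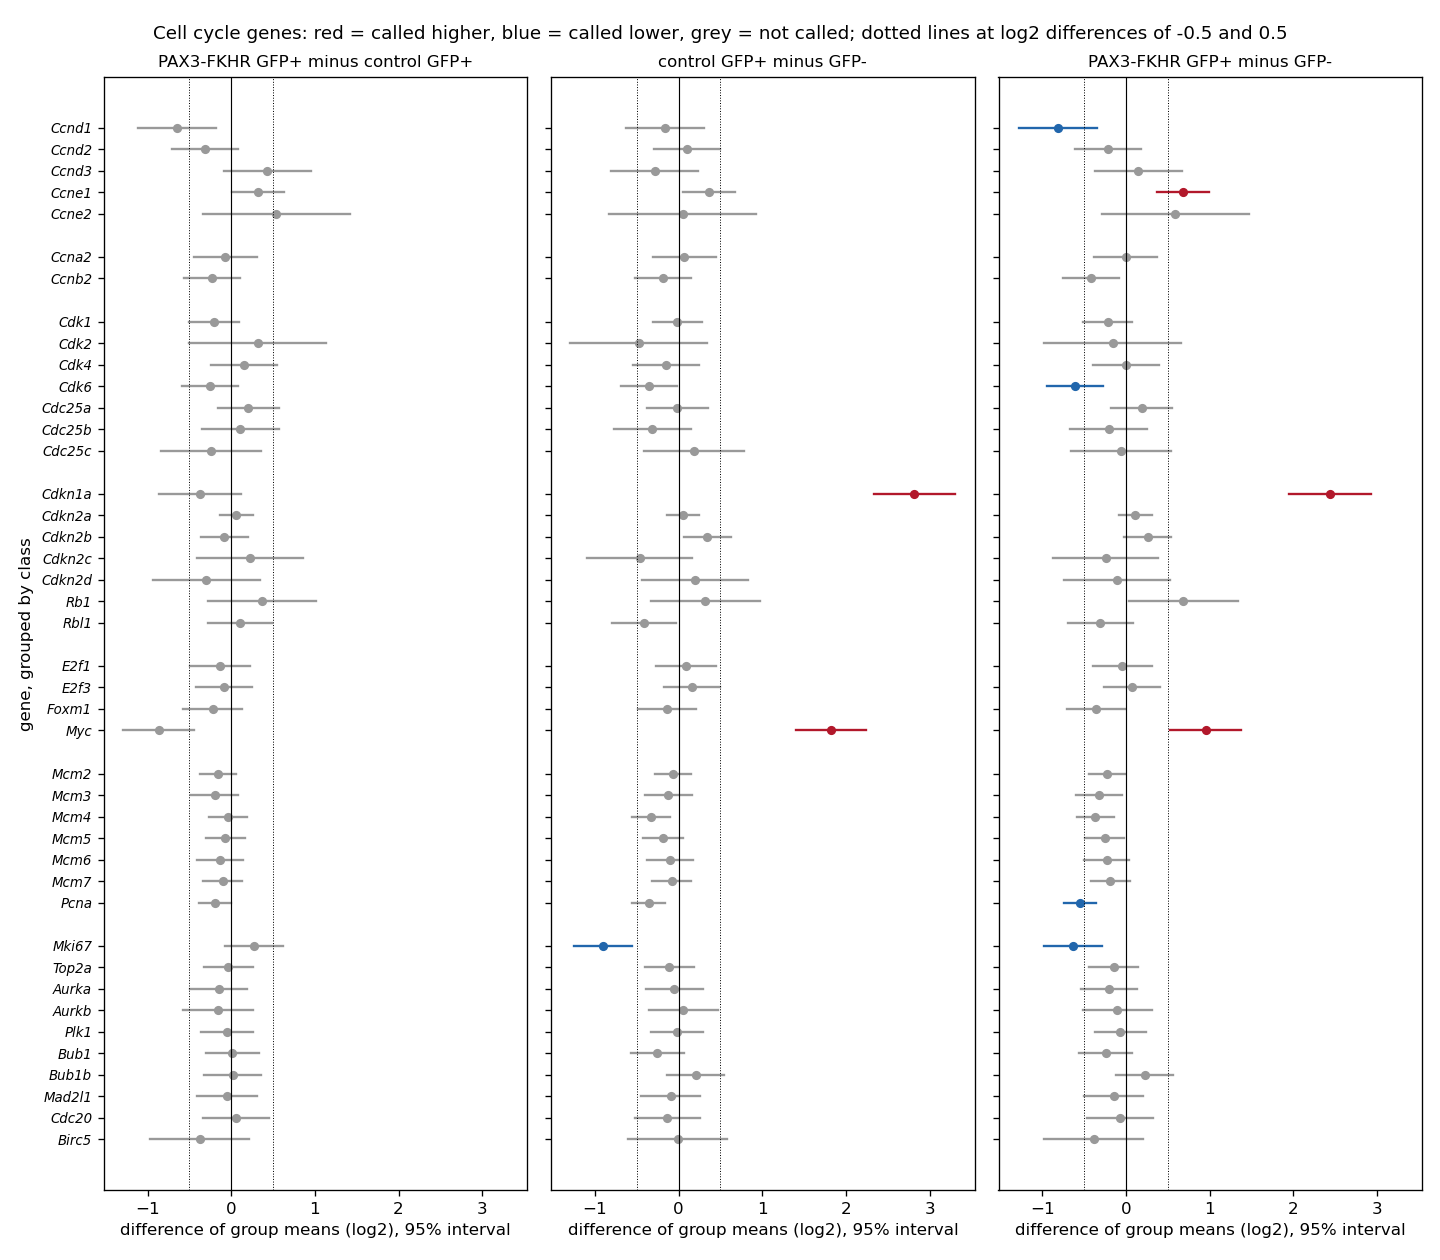
Difference of group means on the log2 scale (x axis) for each of the 42 cell cycle genes (y axis, grouped by class) in the 3 comparisons, with the 95% interval of the limma fit as a line and the call as the colour. No gene is called between the genotypes, 3 are between control GFP+ and GFP- cells and 7 between PAX3-FKHR GFP+ and GFP- cells, and Cdkn1a lies far to the right of all others in both comparisons with GFP- cells.

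Among the G1 and S cyclins, Ccne1 and Ccnd1 were called in opposite directions between PAX3-FKHR GFP+ and GFP- cells, and the other 3 were not called in any comparison. Ccne1 encodes cyclin E1, which activates Cdk2 at the start of DNA synthesis. Its log2 values were 10.83, 10.97 and 11.04 in PAX3-FKHR GFP+ cells, 10.59, 10.85 and 10.45 in control GFP+ cells and 10.34, 10.40 and 10.04 in GFP- cells. The GFP+ arrays of both genotypes were all above the GFP- arrays, and those of the 2 genotypes overlapped. The difference was 0.69 ± 0.14 (SE) on the log2 scale between PAX3-FKHR GFP+ and GFP- cells, a 1.61-fold higher value (adjusted p = 0.0152), and 0.37 ± 0.14 between control GFP+ and GFP- cells (adjusted p = 0.163). Both probe sets of Ccne1 were called in the first of these, the dimmer with a difference of 1.10. In the second the dimmer differed by 0.70 (adjusted p = 0.0594). Its PAX3-FKHR arrays all lay above the control arrays, with a difference of 0.40 between the genotypes (adjusted p = 0.727). Without PAX3-FKHR GFP+ replicate 2 or 3, the adjusted p rose to 0.0724 or 0.0643.

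Ccnd1 encodes cyclin D1, which links growth signals to Cdk4 and Cdk6. Its values were 8.78, 9.16 and 8.99 in PAX3-FKHR GFP+ cells, 9.48, 9.59 and 9.81 in control GFP+ cells and 10.25, 9.74 and 9.38 in GFP- cells. The PAX3-FKHR arrays were the 3 lowest, while control GFP+ and GFP- arrays overlapped. The difference of PAX3-FKHR GFP+ cells was -0.81 ± 0.21 from GFP- cells (adjusted p = 0.0453) and -0.65 ± 0.21 from control GFP+ cells (adjusted p = 0.445). Only 1 of 3 probe sets was called, the others differing by -0.40 and -0.31 from GFP- cells. Between the genotypes these 2 went opposite ways, at 0.33 and -0.44. The call was lost without GFP- replicate 1 or 2 or without any of the PAX3-FKHR arrays, at adjusted p-values of 0.0877 to 0.143, and with arrays centred on their medians or normalized again, at 0.0516 and 0.0561.

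Ccnd2 and Ccnd3, the other D-type cyclins, differed by -0.31 ± 0.18 and 0.43 ± 0.23 between PAX3-FKHR GFP+ and control GFP+ cells. These became -0.19 for Ccnd2 and 0.18 for Ccnd3 without control GFP+ replicate 3, which read 8.44 for Ccnd3 where the other control arrays read 9.13 and 9.27. Over its 7 probe sets Ccnd2 ran from -0.59, with all PAX3-FKHR arrays below the control arrays, to 0.12, and none was called. Ccne2, the second E-type cyclin, varied widely within groups, with values of 6.97, 7.64 and 8.31 in GFP- cells and 7.86, 8.28 and 6.93 in control GFP+ cells. Its difference between the genotypes was 0.54, with an interval of -0.34 to 1.42, and 0.16 without control GFP+ replicate 3.

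The mitotic cyclins were not called. Ccnb2, a partner of Cdk1 at entry into mitosis, read 9.36, 9.15 and 9.26 in PAX3-FKHR GFP+ cells, 9.39, 9.42 and 9.65 in control GFP+ cells and 9.62, 9.94 and 9.46 in GFP- cells. The PAX3-FKHR arrays were all below the other 6. The differences were -0.23 ± 0.15 from control GFP+ cells (adjusted p = 0.794) and -0.42 ± 0.15 from GFP- cells (adjusted p = 0.142), and control GFP+ differed from GFP- cells by -0.19 ± 0.15 (adjusted p = 0.499). With arrays weighted by their fit, Ccnb2 was among 5 genes called lower in PAX3-FKHR GFP+ than in GFP- cells. Ccna2, the cyclin of S phase and G2, overlapped between all groups, with values from 9.72 on GFP- replicate 1 to 10.40 on control GFP+ replicate 3.

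Of the 7 kinases and Cdc25 phosphatases, Cdk6 was called in 1 comparison and the others in none. Cdk6, a partner of D-type cyclins, read 8.36, 8.40 and 8.35 in PAX3-FKHR GFP+ cells, 8.49, 8.55 and 8.82 in control GFP+ cells and 9.01, 8.76 and 9.17 in GFP- cells. The PAX3-FKHR arrays were the lowest and closely grouped, and the highest control array passed the lowest GFP- array. PAX3-FKHR GFP+ cells differed from GFP- cells by -0.61 ± 0.15, a 1.52-fold lower value (adjusted p = 0.0358), and control GFP+ cells by -0.35 ± 0.15 (adjusted p = 0.202). Between the genotypes the difference was -0.25 ± 0.15 (adjusted p = 0.776). A second probe set differed by -0.74 from GFP- cells without passing the test (adjusted p = 0.0627), and the dimmest by -0.08. The call was lost without GFP- replicate 1 or 3 or any PAX3-FKHR array, at adjusted p-values of 0.0976 to 0.115.

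Cdk1, the kinase of mitotic entry, read 10.66, 10.51 and 10.58 in PAX3-FKHR GFP+ cells, 10.54, 10.79 and 11.03 in control GFP+ cells and 10.72, 10.91 and 10.77 in GFP- cells. Its differences were -0.21 ± 0.13 between the genotypes, -0.01 ± 0.13 for control GFP+ against GFP- cells and -0.22 ± 0.13 for PAX3-FKHR GFP+ against GFP- cells. The interval of the second, -0.31 to 0.28, lies within a log2 difference of 0.5 either way. Without control GFP+ replicate 3 the first was -0.08 and the second -0.13. Cdk2 and Cdk4, the kinases of S phase and G1, carried the mark of control GFP+ replicate 3. Cdk2 read 6.64 on that array and 7.91 to 8.43 on the other 8, and its difference between the genotypes went from 0.32 to -0.23 without it. Cdk4 read 11.64 there and 12.24 to 12.48 elsewhere, and its difference went from 0.15 to -0.10.

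The Cdc25 phosphatases, which remove inhibitory phosphates from the kinases, were not called. Cdc25a differed by 0.20 ± 0.16, Cdc25b by 0.11 ± 0.21 and Cdc25c by -0.24 ± 0.27 between the genotypes, and without control GFP+ replicate 3 these were 0.06, 0.23 and 0.11.

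Cdkn1a showed the largest difference of all cell cycle genes measured. It encodes p21, an inhibitor of Cdk2 complexes that also binds Pcna, and is induced by p53 and during muscle differentiation. It read 8.85, 9.25 and 8.58 in PAX3-FKHR GFP+ cells, 9.51, 9.25 and 9.04 in control GFP+ cells and 6.79, 6.41 and 6.14 in GFP- cells. The 6 GFP+ arrays lay far above the 3 GFP- arrays, and the genotypes overlapped. Control GFP+ exceeded GFP- cells by 2.82 ± 0.22 on the log2 scale, or 7.06-fold (adjusted p = 9.37e-05), rank 40 from the highest among 18193 genes. PAX3-FKHR GFP+ exceeded GFP- cells by 2.44 ± 0.22, or 5.44-fold (adjusted p = 0.000122), rank 104. Between the genotypes the difference was -0.38 ± 0.22, with an interval of -0.87 to 0.11 (adjusted p = 0.775). The second probe set gave 2.49 and 2.35 against GFP- cells and -0.14 between the genotypes.

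The Cdkn1a calls held in each of the 18 alternatives run for either comparison, with differences of 2.67 to 2.99 and of 2.27 to 2.62. Differentiating muscle markers were also higher in GFP+ cells. Their mean level per array was 8.51 to 8.99 in PAX3-FKHR GFP+, 7.40 to 8.27 in control GFP+ and 5.14 to 6.33 in GFP- cells. Against GFP- cells, 7 of 11 were called higher in control GFP+ and 10 of 11 in PAX3-FKHR GFP+ cells, where 2.79% and 3.9% of all genes were so. The part of these markers in the Cdkn1a difference was not tested.

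The INK4 inhibitors, which block Cdk4 and Cdk6, were not called. Cdkn2a read 3.74 to 3.99 and Cdkn2b 4.19 to 4.85 over the 9 arrays, and no presence calls were held to say whether such low readings are signal. Cdkn2c ran from 5.24 to 6.78, its highest value on GFP- replicate 3, and Cdkn2d from 5.52 to 6.77, its highest on control GFP+ replicate 3. Rb1, the retinoblastoma protein gene, read 7.35, 7.53 and 6.56 in PAX3-FKHR GFP+ cells and 6.19, 6.39 and 6.80 in GFP- cells, a difference of 0.69 ± 0.29 with overlapping arrays (adjusted p = 0.215). Rbl1, which encodes the related p107, was 8.37, 8.43 and 8.17 in control GFP+ and 8.60, 8.79 and 8.83 in GFP- cells, a difference of -0.41 ± 0.17 (adjusted p = 0.204). A dimmer probe set of Rbl1 passed the test in both GFP+ groups, with differences from GFP- cells of -0.66 for control and -0.86 for PAX3-FKHR (adjusted p = 0.0309 and 0.00782), and another was not called at -0.48 and -0.24.

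**Figure D2:**
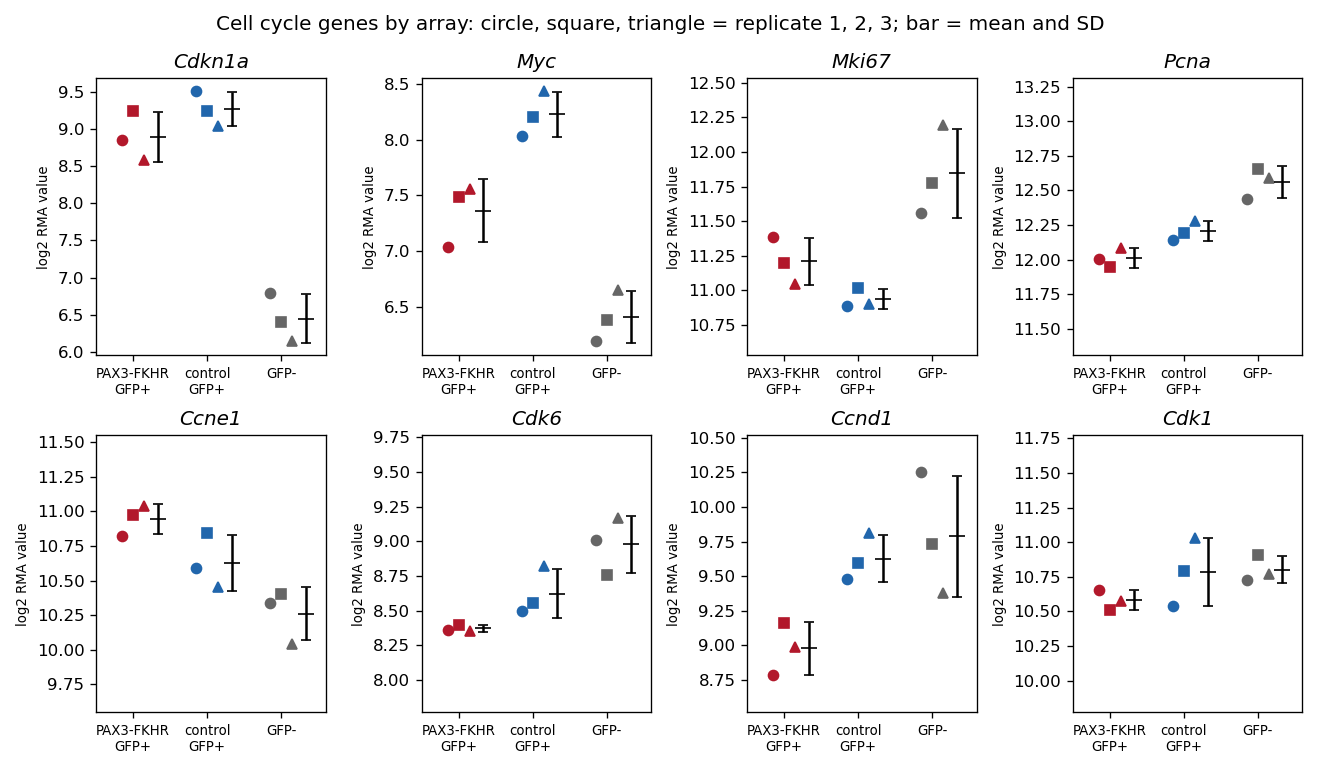
Log2 RMA value on each array (y axis) by group (x axis) for the 7 cell cycle genes called in any comparison and, for reference, Cdk1, which was not called; symbols stand for replicates and the black bar for the mean and SD of 3 arrays. Cdkn1a is high in both GFP+ groups, from 8.58 to 9.51, and Myc falls into 3 separate levels.

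Myc was the transcription factor, and the cell cycle gene, with the smallest adjusted p between the genotypes. Its product drives growth and entry into the cycle. It read 7.04, 7.48 and 7.56 in PAX3-FKHR GFP+ cells, 8.04, 8.21 and 8.44 in control GFP+ cells and 6.19, 6.38 and 6.65 in GFP- cells. No array of one group overlapped another group. Control GFP+ exceeded GFP- cells by 1.82 ± 0.19, or 3.54-fold (adjusted p = 0.000555), and PAX3-FKHR GFP+ exceeded GFP- cells by 0.95 ± 0.19, or 1.94-fold (adjusted p = 0.0134). The first call held in each of the 18 alternatives. The second was lost without PAX3-FKHR replicate 2 or 3 or GFP- replicate 1 or 2, at adjusted p-values of 0.0518 to 0.0685.

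Between the genotypes, Myc differed by -0.87 ± 0.19, with an interval of -1.29 to -0.45, and did not pass the test (adjusted p = 0.118). It ranked 96 from the lowest among 18193 genes. No source used here says that equal replicate numbers share a litter or day. The pairing of PAX3-FKHR and control arrays was inferred from their correlations in these data. With the number as a block the adjusted p was 0.0477 over 9 arrays and 0.0431 over the 6 arrays compared, a fit chosen after the data were seen. In the other 16 of 18 alternatives Myc was not called, and without single arrays its adjusted p was 0.179 to 0.424. The 3 pairs differed by 1.00, 0.73 and 0.88. As the groups did not overlap, any pairing would put the control array higher, so the sign is no support for the pairing. Only 1 probe set of Myc carries a single symbol, so the value has no check from a second one. The differentiating muscle list ran the other way, with 10 of 11 markers higher in PAX3-FKHR GFP+ than in control GFP+ cells. Of these 1, Tnnt1, was called. Of all genes, 42.4% were higher and 0.61% were called higher. All PAX3-FKHR arrays lay above the control arrays for 4 of the 11 and below for 1, against 5.42% and 8.88% of all genes. The mean level of the list was 7.40 on control GFP+ replicate 3 and 8.27 on each of the other control arrays. The part of this list in the Myc difference was not tested.

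The E2F and Fox factors were not called. E2f1 and E2f3, which activate replication genes, differed between the genotypes by -0.13 ± 0.16 and -0.09 ± 0.15, and by -0.04 and 0.01 without control GFP+ replicate 3. Foxm1, an activator of mitotic genes, read 7.06, 7.20 and 7.30 in PAX3-FKHR GFP+ cells, 7.56, 7.36 and 7.31 in control GFP+ cells and 7.81, 7.45 and 7.39 in GFP- cells. Its PAX3-FKHR arrays were the 3 lowest, by -0.36 ± 0.16 from GFP- cells (adjusted p = 0.228). On the other Foxm1 probe sets the arrays of the genotypes overlapped.

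All 7 replication genes had a difference below 0 in each of the 3 comparisons, which share groups, except that without control GFP+ replicate 3 Mcm5 was at 0.03 and Mcm7 at -0.003 between the genotypes. Of all genes, 57.6% lay below 0 between the genotypes, 34% for control GFP+ and 39.1% for PAX3-FKHR GFP+ against GFP- cells. Between the genotypes dimmer probe sets went both ways, Mcm4 at 0.17, Mcm6 at 0.12 and Mcm5 at 0.07, but Mcm2 at -0.22 and Mcm3 at -0.24. Of the 7, 1, Pcna, passed the test, between PAX3-FKHR GFP+ and GFP- cells. Pcna encodes the sliding clamp of the replication polymerases. It read 12.01, 11.95 and 12.09 in PAX3-FKHR GFP+ cells, 12.15, 12.19 and 12.28 in control GFP+ cells and 12.44, 12.66 and 12.59 in GFP- cells, with no overlap between any groups. The difference from GFP- cells was -0.55 ± 0.09 for PAX3-FKHR GFP+ cells, a 1.46-fold lower value (adjusted p = 0.00421). For control GFP+ cells it was -0.36 ± 0.09, which passed the adjusted p at 0.0392 and not the threshold of 0.5. The genotypes differed by -0.19 ± 0.09 (adjusted p = 0.703). The call held without any 1 of the 6 arrays, with differences of -0.61 to -0.50.

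The Mcm2 to Mcm7 genes encode the helicase that opens origins. Mcm4 was the closest to a call, at 10.45, 10.44 and 10.39 in PAX3-FKHR GFP+ cells, 10.44, 10.49 and 10.46 in control GFP+ cells and 10.69, 10.91 and 10.77 in GFP- cells. The GFP+ arrays of both genotypes overlapped and all lay below the GFP- arrays, by -0.36 ± 0.10 and -0.33 ± 0.10 (adjusted p = 0.0585 and 0.0893). The 7 genes differed by -0.19 to -0.55 between PAX3-FKHR GFP+ and GFP- cells, by -0.06 to -0.36 between control GFP+ and GFP- cells and by -0.04 to -0.20 between the genotypes. Between the genotypes the intervals of all 7 lay within a log2 difference of 0.5 either way. Dimmer probe sets gave further calls, Mcm5 at -0.65 for control GFP+ (adjusted p = 0.0439) and Mcm2 at -0.52 for PAX3-FKHR GFP+ against GFP- cells (adjusted p = 0.0433), where the brighter ones differed by -0.18 and -0.22.

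**Figure D3:**
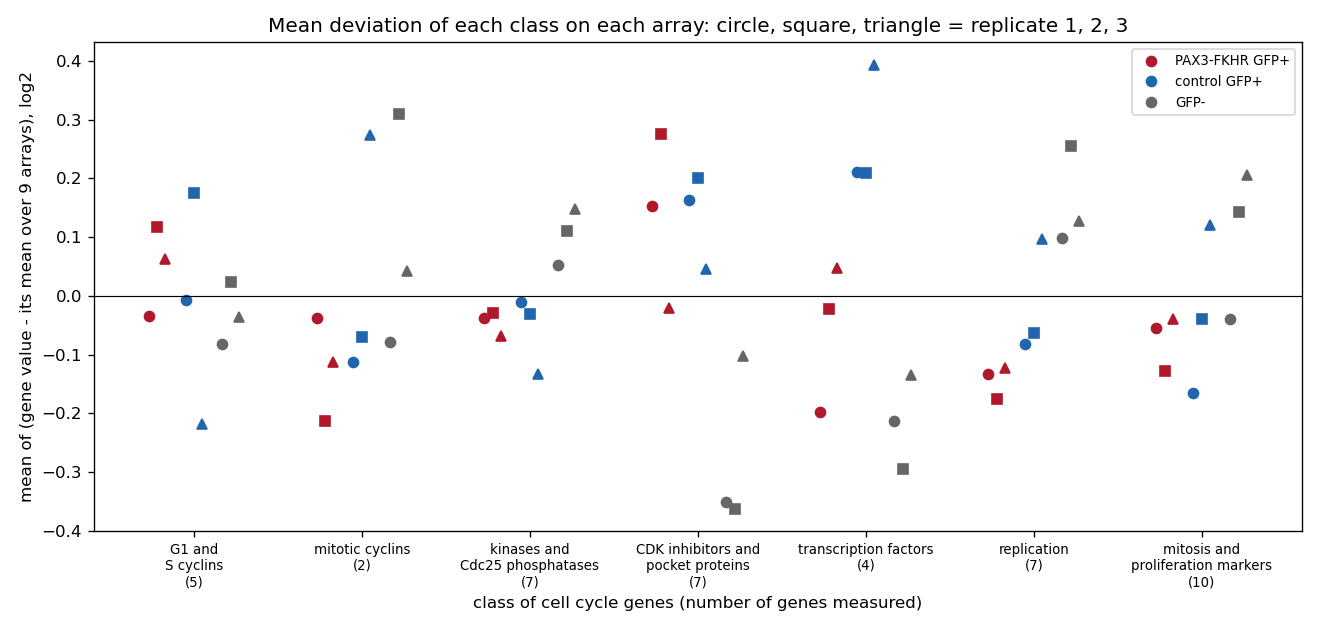
Mean, over the genes of a class, of the log2 value minus the gene's own mean over 9 arrays (y axis), for each class (x axis, with the number of genes) and array; colours are groups and symbols are replicates. The replication genes are lowest on the PAX3-FKHR arrays, at -0.18 to -0.12, and highest on the GFP- arrays, at 0.10 to 0.25, while control GFP+ replicate 3 stands off the other control arrays in most classes.

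Mki67 was the only one of 10 mitosis and proliferation markers to be called. It encodes Ki-67, a protein that coats mitotic chromosomes and is present in cycling cells. It read 11.38, 11.20 and 11.05 in PAX3-FKHR GFP+ cells, 10.89, 11.02 and 10.90 in control GFP+ cells and 11.56, 11.78 and 12.20 in GFP- cells. The 3 groups did not overlap, control GFP+ cells being lowest. Control GFP+ differed from GFP- cells by -0.91 ± 0.16, a 1.88-fold lower value (adjusted p = 0.00774), and the call held without any 1 of the 6 arrays, with differences of -1.05 to -0.73. PAX3-FKHR GFP+ differed from GFP- cells by -0.63 ± 0.16 (adjusted p = 0.0358), and this was lost without PAX3-FKHR replicate 2 or 3 or GFP- replicate 2 or 3, at adjusted p-values of 0.0802 to 0.125. The genotypes differed by 0.27 ± 0.16, with an interval of -0.07 to 0.62 (adjusted p = 0.769). Mki67 has only 1 probe set. On the 3 GFP- arrays the erythroid list, at a mean level of 6.21, 9.16 and 10.05, rose in the same order as Mki67. The limb ectoderm list did so too, at 5.61, 6.31 and 6.74. So did the macrophage list, at 6.23, 6.31 and 6.44, and the endothelial list, at 5.07, 5.72 and 6.17. On GFP- replicate 1 the erythroid level lay within the range of the GFP+ arrays, 5.97 to 7.57. The part of any of these lists in the Mki67 difference was not tested.

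The other 9 markers were not called from their brightest probe sets, and 7 of them lay below 0 for control GFP+ and 8 for PAX3-FKHR GFP+ against GFP- cells. Top2a, the topoisomerase that untangles chromosomes, read 11.12, 11.01 and 11.11 in PAX3-FKHR GFP+ cells, 10.91, 11.02 and 11.42 in control GFP+ cells and 11.25, 11.15 and 11.28 in GFP- cells. Its control and GFP- arrays overlapped, with a difference of -0.11 ± 0.13, or -0.26 without control GFP+ replicate 3, and a dimmer probe set gave -1.06 (adjusted p = 0.042). Plk1, a kinase of centrosomes and spindle, read 9.24 to 9.62 on 8 arrays and 9.69 on control GFP+ replicate 3. Its difference was -0.02 ± 0.14 for control GFP+, or -0.12 without that array, and -0.07 ± 0.14 for PAX3-FKHR GFP+ against GFP- cells. The Aurora kinase genes Aurka and Aurkb differed from GFP- cells by -0.05 and 0.06 in control GFP+ cells, and by -0.10 and -0.08 without control GFP+ replicate 3.

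The spindle checkpoint genes Bub1, Bub1b and Mad2l1 differed between control GFP+ and GFP- cells by -0.26, 0.21 and -0.09, and Cdc20, the activator of chromosome separation, by -0.13. Without control GFP+ replicate 3, which read 10.62 for Cdc20 against 11.18 and 11.46 on the other control arrays, Bub1b was at 0.03 and Cdc20 turned to 0.10. For Bub1 all 3 control arrays, at 9.44 to 9.49, lay below the GFP- arrays, at 9.52 to 9.97. Over the 10 markers the median difference was -0.07 for control GFP+ and -0.15 for PAX3-FKHR GFP+ against GFP- cells, and -0.04 between the genotypes. In the last, the intervals of all 10 lay between -1 and 1 and of 7 between -0.5 and 0.5. Birc5, which encodes survivin, a protein of the chromosomal passenger complex, had the widest of these, its value of 10.38 on control GFP+ replicate 3 standing above 9.14 to 9.78 elsewhere. Its difference between the genotypes went from -0.38 to -0.05 without that array.

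Taking out control GFP+ replicate 3 made no cell cycle gene a call between the genotypes and left the calls of Cdkn1a, Myc and Mki67 between control GFP+ and GFP- cells in place. The typical size of the differences between the genotypes fell, from a median of 0.18 to 0.11 irrespective of sign, and 23 in place of 27 of the 42 genes were below 0, with 10 changing sign. The range then was -0.76 to 0.26.

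Of 111 further genes of the pathway, 109 were measured. Between the genotypes 0 were called in limma by group alone, and the local pooled error test called 1, Gadd45a. Limma with arrays weighted by their fit, or with the block over 6 arrays, called 2 higher, Cdkn1c and Gadd45a. In limma 9 had an unadjusted p under 0.05, where 1522 of all 18193 genes were so. Against GFP- cells, 2 were called higher and 1 lower in control GFP+ cells, and 5 higher and 1 lower in PAX3-FKHR GFP+ cells. These are 1.83% and 0.917%, and 4.59% and 0.917%, of the 109, against 2.79% and 1.93%, and 3.9% and 2.79%, of all genes. Gadd45g and Mycl were higher and Tyms lower in both, and Cdkn1c, Skp2 and E2f2 were called higher in PAX3-FKHR GFP+ cells. Of 38 replication and nucleotide genes 1, Tyms, was called, and in the local pooled error test for PAX3-FKHR GFP+ but not for control GFP+ cells (adjusted p = 0.159). Of 30 spindle, kinetochore and cytokinesis genes 0 were called, in limma and in the local pooled error test. In limma 6 and 4 had an unadjusted p under 0.05 in control GFP+ and PAX3-FKHR GFP+ cells, where 3554 and 3498 of all 18193 genes were so.

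Cdkn1c encodes p57, the other inhibitor of the Cip/Kip family known in muscle differentiation. It read 12.74, 13.06 and 12.70 in PAX3-FKHR GFP+ cells, 12.31, 12.26 and 11.65 in control GFP+ cells and 11.70, 11.65 and 11.47 in GFP- cells. The PAX3-FKHR arrays were the 3 highest. The difference from GFP- cells was 1.22 ± 0.17 for PAX3-FKHR GFP+ (adjusted p = 0.00197) and 0.46 ± 0.17 for control GFP+ cells (adjusted p = 0.148). The genotypes differed by 0.76 ± 0.17 (adjusted p = 0.127, with 0.0591 for the replicate number as a block over 9 arrays and 0.0306 over the 6 arrays compared). With arrays weighted by their fit the adjusted p was 0.0433. In 16 of 18 alternatives Cdkn1c was not called between the genotypes. Cdkn1b, the remaining member of the family, differed by 0.29 ± 0.14 between the genotypes (adjusted p = 0.725).

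Gadd45g and Gadd45a encode stress proteins that slow the cycle. Gadd45g read 7.75, 7.72 and 7.19 in PAX3-FKHR GFP+ cells, 7.82, 7.83 and 7.68 in control GFP+ cells and 6.23, 6.67 and 6.53 in GFP- cells. Both GFP+ groups were above GFP- cells, by 1.07 ± 0.18 and 1.30 ± 0.18 (adjusted p = 0.00589 and 0.00293). Gadd45a instead read 6.0005, 5.98 and 5.58 in PAX3-FKHR GFP+ cells, 4.62, 4.93 and 4.06 in control GFP+ cells and 5.15, 5.42 and 6.54 in GFP- cells. Control GFP+ cells were lowest without overlap, and the genotypes differed by 1.32 ± 0.34 (adjusted p = 0.207, with 0.321 for the block over 9 arrays and 0.00756 over the 6 arrays, a fit chosen after the data were seen). With arrays weighted by their fit the adjusted p was 0.0484. In 15 of 18 alternatives Gadd45a was not called between the genotypes.

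Mycl, a relative of Myc, read 6.97, 7.23 and 6.87 in PAX3-FKHR GFP+ cells, 6.56, 6.69 and 6.42 in control GFP+ cells and 5.79, 5.81 and 5.69 in GFP- cells. Its order of the GFP+ groups was the opposite of that of Myc, with differences from GFP- cells of 1.26 ± 0.14 for PAX3-FKHR and 0.79 ± 0.14 for control (adjusted p = 0.000546 and 0.00975), and of 0.47 ± 0.14 between the genotypes (adjusted p = 0.381). The control call was lost in the local pooled error test, at an adjusted p of 0.21, and with the block over 6 arrays, at 0.0509. E2f2, an activating E2F factor, and Skp2, which targets cell cycle inhibitors for degradation, were called higher in PAX3-FKHR GFP+ than in GFP- cells, by 0.95 ± 0.20 and 0.87 ± 0.21. Each of these 2 calls was lost without at least 3 of the 6 arrays taken singly, PAX3-FKHR replicates 1 and 2 and GFP- replicate 2 for both and GFP- replicate 1 for Skp2 also.

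Tyms, the thymidylate synthase gene, was the replication gene called lower. It read 5.88, 5.37 and 5.68 in PAX3-FKHR GFP+ cells, 5.72, 5.08 and 5.98 in control GFP+ cells and 6.96, 6.54 and 6.38 in GFP- cells. All GFP+ arrays lay below all GFP- arrays, by -0.98 ± 0.24 and -1.03 ± 0.24 (adjusted p = 0.0375 and 0.0335). Each call was lost in 5 of the 6 fits without 1 array, those keeping it being without GFP- replicate 3 for PAX3-FKHR and without control GFP+ replicate 3 for control GFP+ cells, with adjusted p-values of up to 0.157 and 0.115. Uhrf1, which couples DNA methylation to replication, also differed between control GFP+ and GFP- cells, by -0.47 ± 0.11, which passed the adjusted p at 0.0359 and not the threshold of 0.5.

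**Figure D4:**
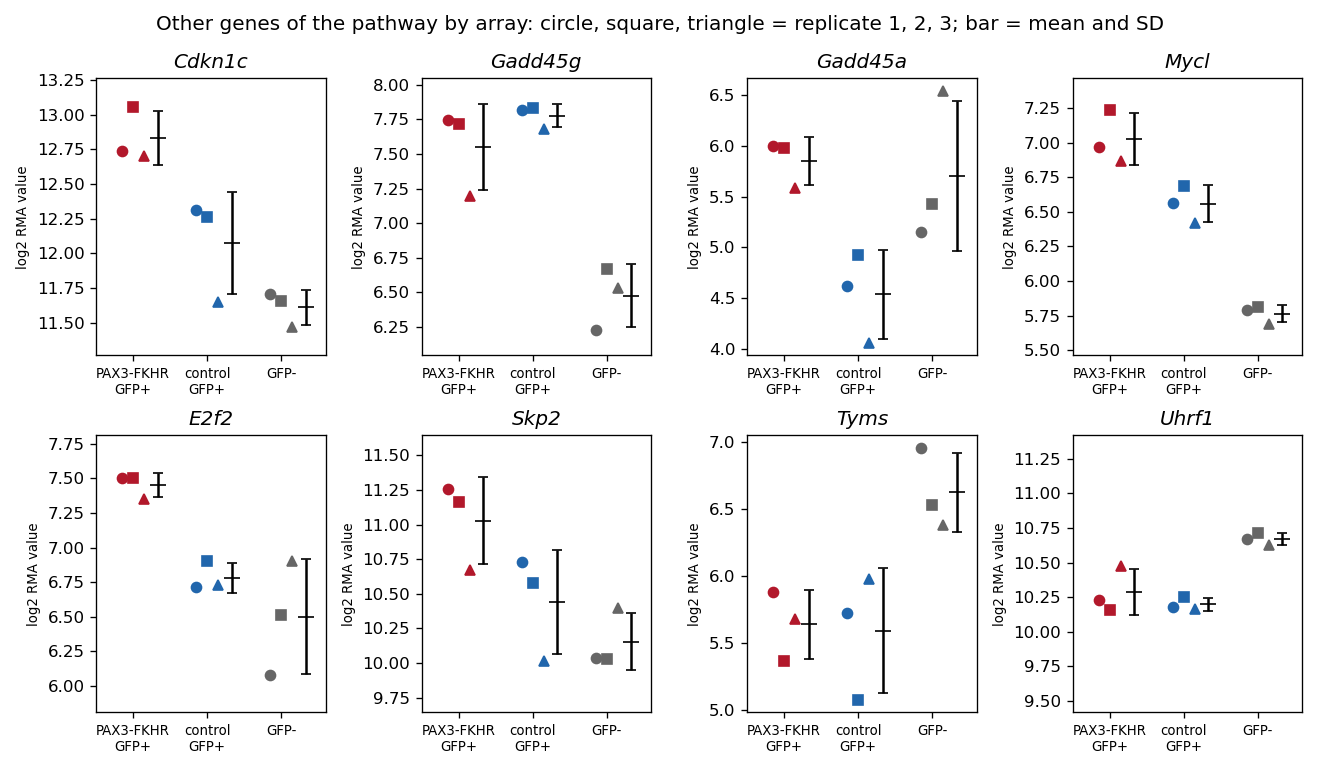
Log2 RMA value on each array (y axis) by group (x axis) for 8 further genes of the pathway; symbols stand for replicates and the black bar for the mean and SD of 3 arrays. Cdkn1c, Mycl and E2f2 are highest in PAX3-FKHR GFP+ cells, Gadd45g is high in both GFP+ groups, and Tyms is low in both.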

How the data were processed

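The authors amplified RNA in 2 cycles, hybridized it to Affymetrix mouse arrays and summarised the probes with RMA; its version is not given in the sources used here. The deposited values are log2 RMA values per probe set and were used as deposited. No filter on absent calls was applied, because the calls were not at hand. Of 45037 probe sets, 34945 have 1 gene symbol, 932 several and 9160 none, in the platform annotation as GEO gives it; 64 control probe sets were set aside.

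All 9 arrays were fitted in limma 3.58.1 (R 4.3.3) with an intensity trend, and p-values were adjusted over all probe sets (Benjamini-Hochberg). The gene lists and members were chosen with earlier results of these data known. The text gives in full every member called in a comparison, of the other members the one of smallest adjusted p in each class, and up to 3 further pathway genes per list; genes near a call, Gadd45a and Uhrf1 among them, were added after their values were seen. The local pooled error test of the authors was rebuilt as an alternative. Replicate numbers come from the titles, and no source says that equal numbers share a litter or day. After removal of group means, the PAX3-FKHR and control arrays with equal numbers correlated by 0.16, 0.47 and 0.29, and those with unequal numbers by -0.37 to 0.0004. As such deviations cancel within a group, positive values at equal numbers lower the others, which are then no separate evidence of pairing. PAX3-FKHR replicates 1 and 3 each correlated by 0.32 with a GFP- array of unequal number. Equal numbers were taken to pair the 2 genotypes on these data alone. The block is not in the fit reported and is given where it changed a call. The numbers of GFP- arrays did not pair in this way. Alternatives were centring on medians, quantile normalization, no trend, array weights, the block, the 6 arrays compared alone, no or a larger threshold, a mean of at least 5, probe sets not ending in _x_at or _s_at, and each array left out. The block on 6 arrays was chosen after seeing the data. Both tests were first tested on simulated data. Promoters are RefSeq windows on GRCm38.p6. The 3 arrays per group limit the precision, and the smallest two-sided exact permutation p that 3 against 3 arrays allow is 0.1.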

Additional observations from a re-analysis of the deposited data

How the results depend on the processing

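Of 396 values that 22 single results took under the alternatives, 320 kept their direction and their side of the threshold, 69 no longer passed, 7 newly passed (Myc, Cdkn1c and Gadd45a between the genotypes) and none changed sign. Between the genotypes, no cell cycle gene was called under any alternative except 1 called lower, Myc, with the replicate block over 9 arrays or over the 6 arrays. For control GFP+ against GFP- cells, the genes called lower were 2 with no fold threshold (Pcna added), 0 at a log2 difference of 1, 2 with probe sets not ending in _x_at or _s_at (Mcm5 added) and 0 with the replicate block over 6 arrays, where Mki67 had an adjusted p of 0.0529. For PAX3-FKHR GFP+ against GFP- cells, those called higher were 1, Cdkn1a, at a log2 difference of 1, and from 1 to 3 without single arrays, and the local pooled error test called Rb1 in place of Ccne1. Without PAX3-FKHR GFP+ replicate 2 or 3, Cdkn1a alone was called. Those called lower were 2 with the replicate block, 2 with the 6 arrays alone, 2 with the local pooled error test (Ccnd1 and Pcna), 0 at a log2 difference of 1, 1 (Pcna) with the replicate block over 6 arrays, and 1 to 2 without single arrays, against 4. Equal numbers do not pair GFP- arrays, so a call lost with the block there is not described as a weaker effect. The replicate block over 9 arrays changed no other count by over 1.5 times. The cause of these changes was not tested beyond the number of arrays and the threshold.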
